A study of Saccharomyces cerevisiae with 12 samples.

Results

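RNA polymerase I is represented here by 10 genes of the yeast Saccharomyces cerevisiae, chosen by name: the subunit genes RPA190, RPA135, RPA49, RPA43, RPA34, RPA14 and RPA12 and the factor genes RRN3, RRN6 and RRN7. All 10 were among the 7126 genes of the deposited table, and all 10 passed the filter on low values that left 6583 genes to be tested. The 12 RNA-seq libraries came from strains of the CEN.PK background in 6 genotypes of 2 libraries each: WT, set2 delta, cho2 delta, opi1 delta, and the double deletions cho2set2 delta and opi1set2 delta, written below without the word delta. In every genotype, log-phase cultures in YPL, a rich medium, were washed and then held for 1 h in SL, a minimal medium, before RNA was taken. Cells before the switch are not analysed here, so each comparison is between genotypes after the same switch. SET2 encodes the enzyme that methylates lysine 36 of histone H3. CHO2 encodes the phosphatidylethanolamine methyltransferase on the way to phosphatidylcholine. OPI1 encodes a repressor of phospholipid synthesis genes. The comparisons ask how the loss of SET2 bears on these genes in cells with and without each lipid gene.

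RNA polymerase I transcribes a single kind of gene, the repeated ribosomal DNA, into the long precursor of the large ribosomal RNAs. RPA190 and RPA135 form its catalytic core, RPA49 with RPA34 and RPA43 with RPA14 sit on it as pairs, and RPA12 acts in cleavage of the nascent RNA. RRN3 joins the polymerase to the core factor on the promoter, which is made of RRN6, RRN7 and RRN11. In yeast many genes of the polymerase and of ribosome assembly carry the promoter elements PAC and RRPE and are known to be expressed together with growth.

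The libraries held 7383001 to 9461609 counts each, and a member had between 39 and 1048 counts in a library. As a check of the labels, SET2 was counted 153 and 181 times in the WT libraries and 0 times in all 4 libraries of set2 and opi1set2. For cho2set2 it was counted 50 times in the library labelled replicate 1 and 0 times in replicate 2, so the calls of members in cho2 cells are given with and without the former. Below, a library labelled as a SET2 deletion is one of the 6 of set2, cho2set2 and opi1set2, that library included. CHO2 and OPI1 were near 0 in the strains named for their deletion, with at most 13 CHO2 counts and at most 1 OPI1 count. Whether a genotype's libraries were grown as separate cultures is not said in the labels, so the p-values reflect how far these samples spread, which may be technical. These are bulk cultures, in which fewer cells that express a gene and less RNA per cell cannot be told apart. A change below is a log2 change ± SE from edgeR's quasi-likelihood test with 2 libraries in each group, and a gene is said to have risen or fallen where its Benjamini-Hochberg adjusted p over all tested genes was below 0.05.

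The PAC element has the core letters GATGAG, and 8 of the 10 members carried that core, on either strand, within 300 bases upstream of the start codon. The sites nearest the start are shown because the same core is common to the ribosome assembly genes described further on. Each line gives 30 bases of the RefSeq S288C reference, build sacCer3, 5′ to 3′ on the strand named, with the core in capitals.
RPA190, chrXV:960806-960835, minus strand, 172 to 162 bases upstream: ctttttaagaGATGAGATGAGatttgaaat
RPA135, chrXVI:581285-581314, plus strand, 109 to 99 bases upstream: ataattaagaGATGAGATGAGtctctaaga
RPA49, chrXIV:182721-182750, minus strand, 130 to 125 bases upstream: attttttattgcGATGAGctgaaattttcc
RPA43, chrXV:960347-960376, minus strand, 182 to 177 bases upstream: tgaaaagattccGATGAGggtgtatgggtg
RPA34, chrX:140315-140344, plus strand, 110 to 105 bases upstream: aaaaattttatcGATGAGcattgaatagct
RPA14, chrIV:769454-769483, minus strand, 59 to 54 bases upstream: ctctgccttaccGATGAGacctctataatc
RRN3, chrXI:208061-208090, plus strand, 174 to 169 bases upstream: aaaagatattttGATGAGcatctctcgttt
RRN6, chrII:201811-201840, minus strand, 80 to 75 bases upstream: ttaagaaaccgaGATGAGctttcatattag

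RPA190 and RPA135, the catalytic pair, each held overlapping copies of the core at 1 site, on the strand opposite to the gene. RPA12 and RRN7 had no match to these letters in the window. Over 6001 genes with such a window the core was found in 19.13%, so its presence alone is not rare. The longer form GCGATGAG was found in 1 member, RPA49, and in 4.05% of the 6001 genes. The RRPE core AAAATTTT, whose letters read the same on both strands, was found in 7 members and in 9.42% of genes, and the members without it were RPA12, RRN6 and RRN7. RPA43, RPA14 and RRN3, none of which rose in any comparison below by edgeR's test, carried both cores, as RPA190 and RPA135 did. A match describes the letters only and says nothing of a bound factor.

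Loss of SET2 was followed by higher RNA of the catalytic subunits in every background. RPA190 (YOR341W, chromosome XV, 960987 to 965981) encodes the largest subunit. Its level, in CPM (the count per 1e6 library counts, with the library size scaled by TMM), was 29.98 and 19.3 in the WT libraries and 81.0 and 67.1 in set2. In the lipid mutants it was 31.9 and 31.8 in cho2 against 58.0 and 76.8 in cho2set2, and 14.1 and 9.74 in opi1 against 60.5 and 67.8 in opi1set2. Every library labelled as a SET2 deletion lay above every other library. RPA190 rose 3.01-fold with SET2 loss in otherwise WT cells (1.59 ± 0.21, adjusted p = 6.97e-05), 2.11-fold in cho2 cells (1.08 ± 0.21, adjusted p = 0.00226) and 5.39-fold in opi1 cells (2.43 ± 0.23, adjusted p = 1.72e-06). When the library labelled cho2set2 replicate 1 was left out, the rise in cho2 cells was 1.27 ± 0.24 (adjusted p = 0.00212), and that of RPA135, described next, was 1.76 ± 0.18 (adjusted p = 2.17e-05).

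RPA135 (YPR010C, chromosome XVI, 577585 to 581196), the second-largest subunit, had a larger fold than RPA190 in each of these comparisons. In WT it stood at 32.2 and 22.5 CPM and in set2 at 122 and 114, at 31.4 and 27.9 in cho2 and 80.1 and 101 in cho2set2, and at 15.5 and 15.4 in opi1 and 112 and 108 in opi1set2. Here too the libraries labelled as SET2 deletions did not overlap the others. The change was 2.11 ± 0.17 in otherwise WT cells (4.32-fold, adjusted p = 1.04e-06), 1.61 ± 0.17 in cho2 cells (3.04-fold, adjusted p = 1.11e-05) and 2.83 ± 0.18 in opi1 cells (7.11-fold, adjusted p = 9.1e-08).

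RPA49 and RPA34 form a heterodimer that supports initiation and elongation, and RPA49 passed in more of the comparisons. RPA49 (YNL248C, chromosome XIV, 181361 to 182608) had 11.5 and 5.45 CPM in WT and 24.6 and 19.8 in set2, 12.6 and 13.5 in cho2 and 13.7 and 22.2 in cho2set2, and 5.39 and 8.7 in opi1 and 38.3 and 37.7 in opi1set2. It rose in otherwise WT cells (1.40 ± 0.32, adjusted p = 0.00344) and in opi1 cells (2.42 ± 0.33, 5.36-fold, adjusted p = 3.77e-05), and its difference in cho2 cells did not pass (0.46 ± 0.31, adjusted p = 0.36). The WT replicates of RPA49 lay far apart, and the first of these changes ran from 0.95 to 2.02 over 11 alternatives. The value of 2.02 was that with WT replicate 1 left out. In cho2 cells, leaving out the library labelled cho2set2 replicate 1 gave 0.77 (adjusted p = 0.163).

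RPA34 (YJL148W, chromosome X, 140437 to 141138) rose in opi1 cells only by this test, from 8.98 and 6.88 CPM in opi1 to 27.3 and 30.8 in opi1set2 (1.87 ± 0.30, 3.66-fold, adjusted p = 0.000151). In WT it had 15.8 and 8.12 CPM against 19.0 and 17.1 in set2 (0.60 ± 0.28, adjusted p = 0.116), and this difference passed without WT replicate 1 (1.15, adjusted p = 0.0118). In cho2 it had 17.7 and 11.9 CPM and in cho2set2 19.2 and 16.7 (0.28 ± 0.28, adjusted p = 0.558). The interaction term tests whether the change with SET2 loss differed, in either direction, between opi1 and otherwise WT cells. It did not pass for RPA34 by edgeR's test (1.27 ± 0.41, adjusted p = 0.0768) and passed by DESeq2 (1.265, adjusted p = 0.0383).

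The stalk subunits RPA43 and RPA14, of which RPA43 is the contact for RRN3, passed in none of the comparisons with SET2 loss by edgeR's test. RPA43 (YOR340C, chromosome XV, 959202 to 960182) had 12.9 and 6.94 CPM in WT and 12.03 and 13.5 in set2, 12.4 and 9.05 in cho2 and 9.44 and 11.02 in cho2set2, and 9.67 and 6.1 in opi1 and 14.1 and 12.7 in opi1set2. Its changes were 0.37 (95% interval -0.28 to 1.02), -0.07 and 0.77 (0.09 to 1.44, adjusted p = 0.0611), in that order. The last of these passed by limma on log2(FPKM + 1) (0.90, adjusted p = 0.0325) and on log2(FPKM + 0.1) (0.99, adjusted p = 0.0361). It was larger, 1.14, without opi1 replicate 1. RPA14 (YDR156W, chromosome IV, 769525 to 769938) overlaps YDR157W by 8 bases on the same strand, and YDR157W had at most 1 count in a library. The level of RPA14 lay between 11.2 and 22.9 CPM over all 12 libraries, and its changes were -0.03 (95% interval -0.59 to 0.53), -0.22 and 0.28 (-0.31 to 0.87). The intervals for RPA14 leave out the changes found for RPA190 and RPA135 in the same cells.

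RPA12 (YJR063W, chromosome X, 555195 to 555572) acts in RNA cleavage and termination and stood out in 1 genotype. Its level was 15.1 and 11.3 CPM in WT, 14.1 and 14.3 in set2, 14.0 and 13.5 in cho2, 13.5 and 17.7 in cho2set2 and 10.4 and 10.1 in opi1, against 22.2 and 27.7 in opi1set2. Both opi1set2 libraries stood above all others, which also held for RPA49 and RPA34. RPA12 rose with SET2 loss in opi1 cells (1.28 ± 0.23, 2.43-fold, adjusted p = 0.000367), while its values in otherwise WT cells (0.11 ± 0.22, adjusted p = 0.742) and in cho2 cells (0.18 ± 0.22, adjusted p = 0.643) did not pass. RPA12 was the only member whose interaction of opi1 and set2 passed by edgeR's test (1.17 ± 0.32, adjusted p = 0.0459). That call was lost under 7 of 15 alternatives. They were the replicate block and the omission of WT replicate 1, of either set2 library, of either opi1 library or of opi1set2 replicate 2.

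**Figure D1:**
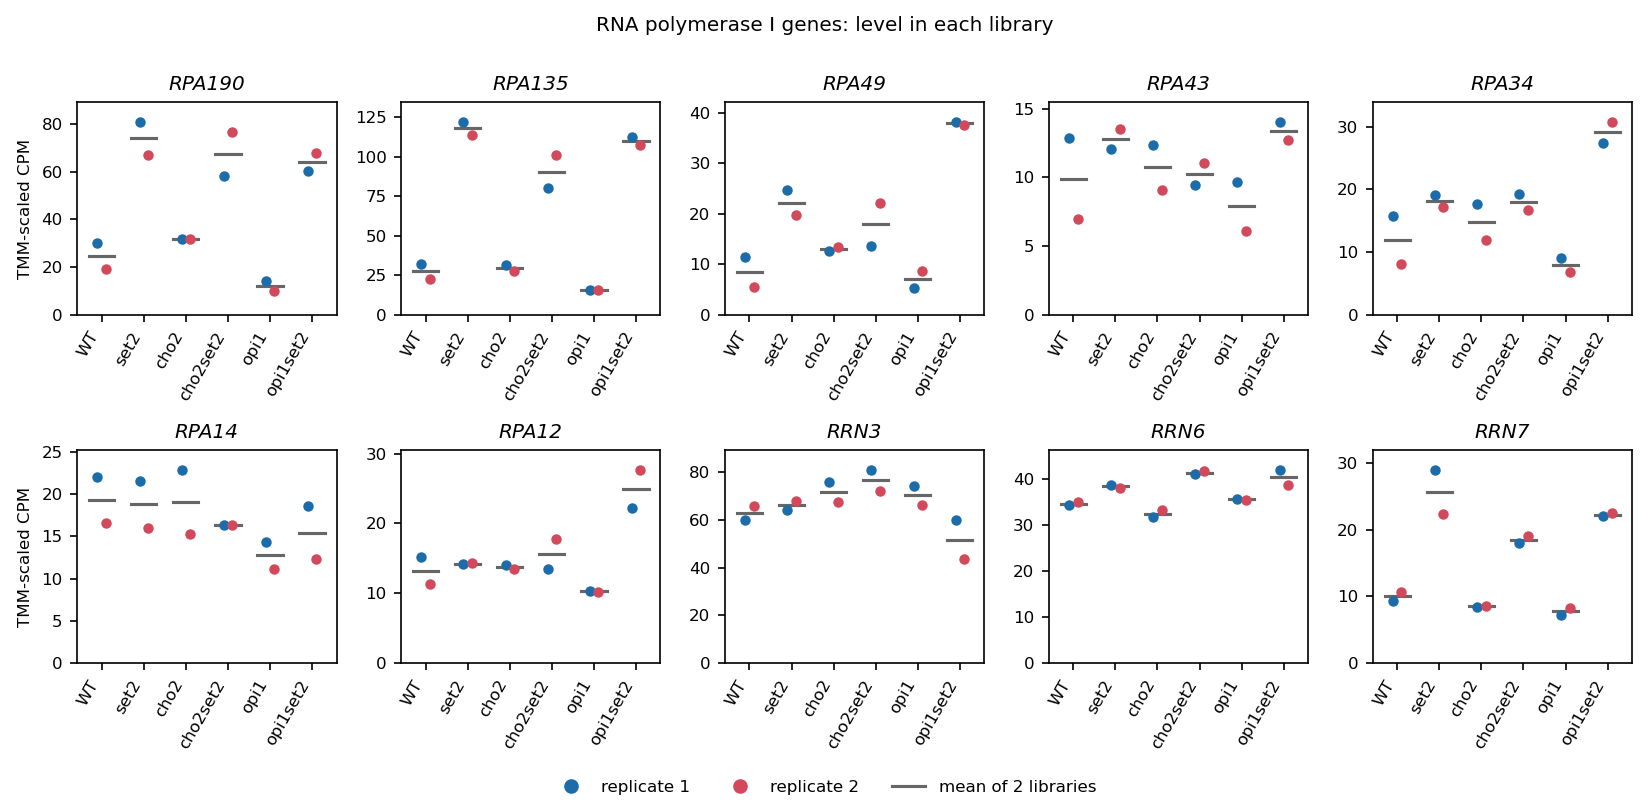
Level of each of the 10 genes in TMM-scaled CPM (vertical axes, each from 0) in the 6 genotypes, with blue points for replicate 1, red points for replicate 2 and a grey line for the mean of 2 libraries. RPA190 and RPA135 are high in set2, cho2set2 and opi1set2, RPA12 is high in opi1set2 only, and RRN6 lies between 31.7 and 41.9 throughout.

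Among the factors, RRN7 rose with SET2 loss in every background, and RRN6 and RRN3 rose in none. RRN7 (YJL025W, chromosome X, 393967 to 395511), the core factor subunit related to TFIIB, had 9.37 and 10.7 CPM in WT and 29.1 and 22.4 in set2, 8.4 and 8.56 in cho2 and 18.1 and 19.0 in cho2set2, and 7.18 and 8.31 in opi1 and 22.1 and 22.5 in opi1set2. All 6 libraries labelled as SET2 deletions were above the other 6. It rose 2.56-fold in otherwise WT cells (1.36 ± 0.20, adjusted p = 0.000175), 2.19-fold in cho2 cells (1.13 ± 0.21, adjusted p = 0.00171) and 2.87-fold in opi1 cells (1.52 ± 0.21, adjusted p = 5.83e-05). The rise in cho2 cells had adjusted p = 0.00652 when the library labelled cho2set2 replicate 1 was left out.

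RRN6 (YBL014C, chromosome II, 199064 to 201748), which sits with RRN7 in the core factor, passed in no comparison. It had 34.3 and 34.8 CPM in WT, 38.6 and 37.99 in set2, 31.7 and 33.2 in cho2, 40.9 and 41.7 in cho2set2, 35.6 and 35.5 in opi1 and 41.9 and 38.6 in opi1set2. The libraries labelled as SET2 deletions lay above their own background in each case, with changes of 0.15 (95% interval -0.14 to 0.43), 0.35 (0.06 to 0.64, adjusted p = 0.0926) and 0.18 ± 0.14 (adjusted p = 0.304). RRN3 (YKL125W, chromosome XI, 208247 to 210130), the bridge between polymerase and promoter, had 60.07 and 65.9 CPM in WT and 64.3 and 68.1 in set2, 75.8 and 67.7 in cho2 and 81.1 and 72.3 in cho2set2. It was the only member to fall with SET2 loss, from 74.3 and 66.5 CPM in opi1 to 59.99 and 43.5 in opi1set2 (-0.44 ± 0.15, adjusted p = 0.0294). That call was lost under 5 of 11 alternatives, with values from -0.69 to -0.23, which were limma at both pseudocounts and the omission of opi1 replicate 1, opi1 replicate 2 or opi1set2 replicate 2 (largest adjusted p = 0.28).

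**Figure D2:**
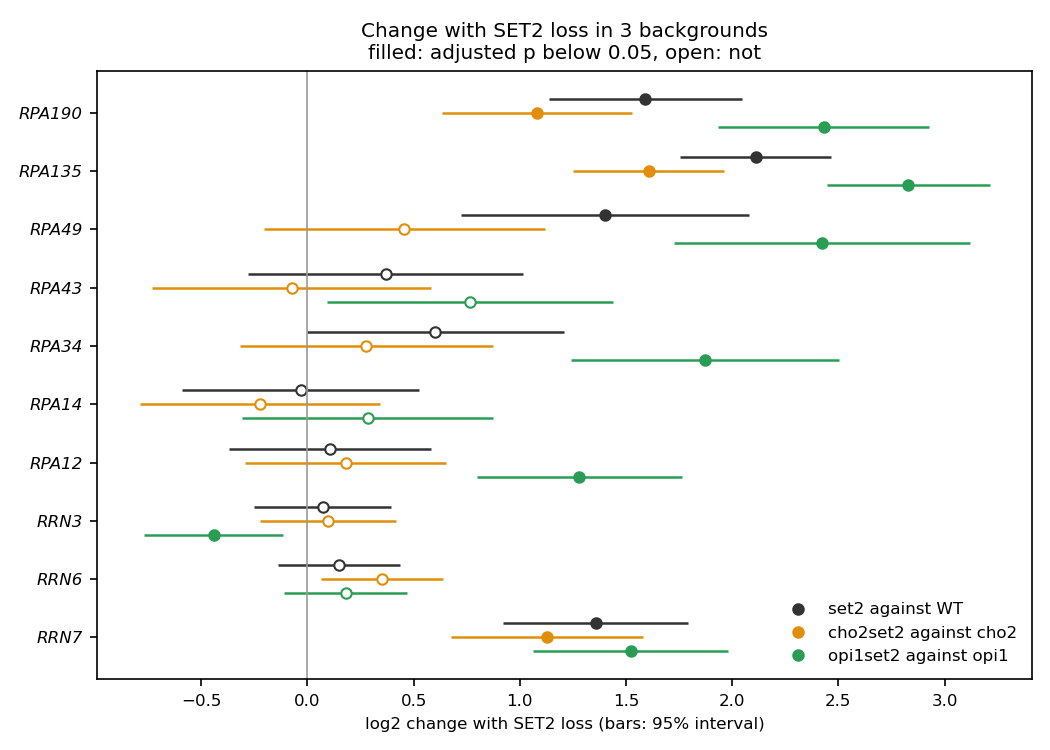
Log2 change with SET2 loss (horizontal axis) for each gene in otherwise WT cells (black), cho2 cells (orange) and opi1 cells (green), with bars for the 95% interval and filled points where the adjusted p was below 0.05. RPA190, RPA135 and RRN7 are filled in all 3 backgrounds, and RPA43, RPA14 and RRN6 in none.

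Counted together, 4 of the 10 genes rose and 0 fell in set2 against WT, where 18.5% of 6580 genes rose and 15.9% fell. The median change of the 10 was 0.48, against -0.006 for all genes tested. In cho2set2 against cho2, 3 rose and 0 fell, with 11.3% of genes rising and 5.58% falling and a median of 0.31 for the members. Without the library labelled cho2set2 replicate 1 the same 3 passed there, and the others had 0.77 (RPA49), 0.37 (RPA12), 0.37 (RRN6), 0.17 (RPA34), 0.04 (RPA43), 0.01 (RRN3) and -0.22 (RPA14). In opi1set2 against opi1, 6 rose and 1 fell, with 23.5% and 20.8% of genes and a median of 1.40. RPA190, RPA135 and RRN7 are the members that rose in all 3 comparisons, and their calls held under every alternative tried. Set beside WT, cho2set2 had 4 members higher and 0 lower (11.6% and 6.99% of genes), and opi1set2 had 6 higher and 0 lower (21.3% and 17.9%). In cho2set2 the call of RPA49 (1.09, adjusted p = 0.0283) was lost by limma at both pseudocounts (adjusted p = 0.0501 and 0.0584), without WT replicate 2 and without cho2set2 replicate 2, and that of RRN7 without WT replicate 1 or cho2set2 replicate 2. In opi1set2 the call of RPA12 (0.92, adjusted p = 0.00407) was lost without WT replicate 2.

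Fewer members passed with the lipid deletions alone. In cho2 against WT no member passed by edgeR's quasi-likelihood test, with 0 at an unadjusted p below 0.05 and 0 by DESeq2, while 1.72% of genes passed. The changes ran from -0.24 (RRN7) to 0.63 ± 0.33 (RPA49, adjusted p = 0.495). In opi1 against WT both catalytic subunits were lower, RPA190 by -1.05 ± 0.24 (adjusted p = 0.00697) and RPA135 by -0.82 ± 0.18 (adjusted p = 0.00638), so 0 members rose and 2 fell where 8.94% of genes rose and 8.77% fell. Both calls were lost without WT replicate 1 and without opi1 replicate 2, and RPA34 (-0.59 ± 0.31, adjusted p = 0.213) passed without WT replicate 2. Against cho2 in place of WT, opi1 had the same 2 genes lower, RPA190 by -1.42 ± 0.24 (adjusted p = 0.0015) and RPA135 by -0.94 ± 0.18 (adjusted p = 0.00461), with 4.27% of genes higher and 4.53% lower. The call of RPA135 there was lost without cho2 replicate 1 or opi1 replicate 2. Both comparisons share the opi1 libraries.

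The WT libraries differed from each other in the subunit genes. Replicate 1 was above replicate 2 for 7 of 7 subunit genes and for 29 of 29 genes of the ribosome assembly list below. Over all tested genes it was above for 3314 of 6583, or 50.3%. The factor genes went the other way, with 60.07 and 65.9 CPM for RRN3, 34.3 and 34.8 for RRN6 and 9.37 and 10.7 for RRN7. The summed level of the 7 subunits was 139.5 and 90.3 CPM in WT and 78.3 and 68.2 CPM in opi1, so the opi1 libraries lay below both WT libraries but WT replicate 2 was nearer to them than to WT replicate 1. In the libraries labelled as SET2 deletions the sum ran from 210.3 to 296.5 CPM, above the highest of the others, 142.9 CPM in cho2 replicate 1. Its lowest value was 261.5 CPM without the library labelled cho2set2 replicate 1. The part of this difference between WT libraries in the results was not tested beyond leaving out each library.

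Among the strains named for a SET2 deletion, the catalytic subunits passed in none of the comparisons of lipid genotypes. In cho2set2 against set2, 0 members passed by edgeR's test, where 7.89% of genes did; 2 had an unadjusted p below 0.05 (RPA135, -0.38, and RRN7, -0.47), and 0 passed by DESeq2. In opi1set2 against set2, RPA12 was higher (0.81 ± 0.22, adjusted p = 0.0137), so 1 member rose and 0 fell, with 13.5% and 12.3% of genes. This call was lost without either set2 library or without opi1set2 replicate 2. RPA190 differed by -0.21 (95% interval -0.64 to 0.22) and RPA135 by -0.10 (-0.43 to 0.23) between these strains. RPA49 (0.77, adjusted p = 0.0627) and RPA34 (0.68, adjusted p = 0.0765) came close to passing by edgeR's test. By DESeq2, RPA49 passed in opi1set2 against set2 (0.77, adjusted p = 0.0459). RRN3 did not pass there (-0.35, adjusted p = 0.101) and had -0.61 without opi1set2 replicate 1. In opi1set2 against cho2set2, RPA49 (1.09 ± 0.29, adjusted p = 0.0184) and RPA12 (0.68 ± 0.22, adjusted p = 0.0396) were higher and RRN3 was lower (-0.57 ± 0.15, adjusted p = 0.0177), with 9.3% of genes higher and 9.91% lower. All 3 calls were lost without the library labelled cho2set2 replicate 1, and those of RPA12 and RRN3 also without opi1set2 replicate 2. That of RPA12 was also lost with the replicate block (adjusted p = 0.0508), that of RPA49 by limma on log2(FPKM + 0.1) (adjusted p = 0.0525), and that of RRN3 by limma at both pseudocounts (adjusted p = 0.0569 and 0.0614).

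The interaction terms ask whether the effect of SET2 loss differed between backgrounds. For cho2 and set2, 0 members passed by edgeR's test and 0 by DESeq2, where 0.912% of genes did, and RPA135 (-0.50 ± 0.23) and RPA49 (-0.95 ± 0.44) had unadjusted p below 0.05. For opi1 and set2, 1 member rose (RPA12) and 0 fell, with 2.84% and 2.63% of genes. RPA190 (0.84 ± 0.31, adjusted p = 0.118) and RPA135 (0.72 ± 0.24, adjusted p = 0.0856) did not pass, so their larger folds in opi1 cells are not shown to differ from those in otherwise WT cells. The count rose to 5 without WT replicate 2, with RPA190, RPA135, RPA49 and RPA34 passing as well, and to 3 without opi1set2 replicate 1, where RPA34 and RRN3 passed.

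The unequal changes can be read within each library as ratios to RPA190, which do not depend on the scaling between libraries. This measure was chosen after the data were seen and uses the same counts, so it is a further description of the changes above. All the ratios share the RPA190 counts, which by themselves separate the libraries by SET2 label. A gene with a flat level would thus also reach a small p, so the p-values below are no separate support. The log2 ratio was compared between the 6 libraries labelled as SET2 deletions and the other 6 by a 2-sided exact permutation test within each background (216 permutations, smallest possible p = 0.00926), for 9 genes. Relative to RPA190, RPA135 was higher in the former by 0.48. Lower by the same measure were RPA34 (-0.76), RPA12 (-1.18), RPA43 (-1.31), RRN6 (-1.46), RPA14 (-1.67) and RRN3 (-1.78), each, like RPA135, at the smallest exact p (Benjamini-Hochberg 0.0119). The ratios of RPA49 (-0.28, exact p = 0.232) and RRN7 (-0.40, exact p = 0.130) did not pass. Leaving out the library labelled cho2set2 replicate 1 changed none of these calls.

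RPA190 and RPA43 are neighbours. They lie head to head on chromosome XV with 804 bases between their start codons (960183 to 960986) and no annotated gene between them. The CPM ratio of RPA190 to RPA43 was 2.33 and 2.79 in WT. With a lipid gene deleted alone it was 2.57 and 3.51 (cho2) or 1.46 and 1.60 (opi1). It was 6.74 and 4.97 in set2, 6.14 and 6.96 in cho2set2 and 4.30 and 5.35 in opi1set2. The lowest ratio of a library labelled as a SET2 deletion was above the highest of the others, and the range of the former is the same without the library labelled cho2set2 replicate 1.

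**Figure D3:**
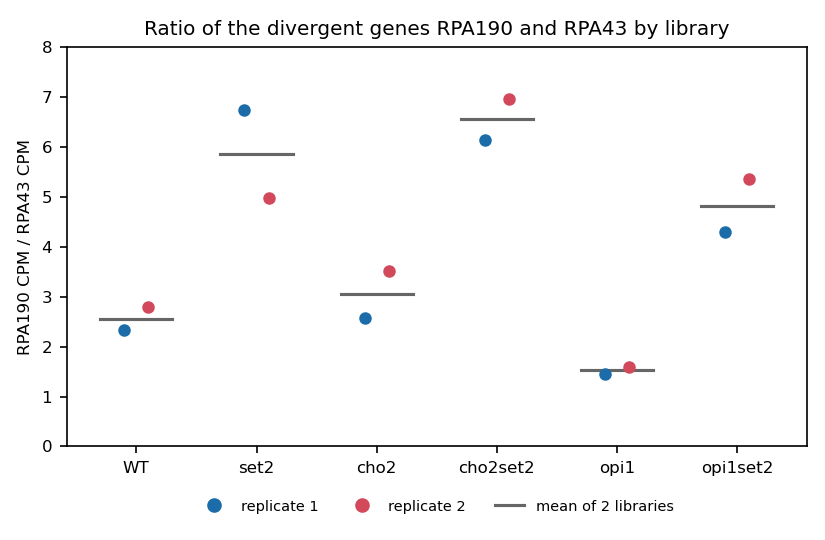
Ratio of RPA190 CPM to RPA43 CPM (vertical axis, from 0) in each library of the 6 genotypes, with blue points for replicate 1, red points for replicate 2 and a grey line for the mean. The 6 libraries of WT, cho2 and opi1 lie between 1.46 and 3.51, and the 6 labelled as SET2 deletions between 4.30 and 6.96.

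Per length, the genes of this enzyme were far from equal in WT. On the TMM-scaled FPKM scale, the WT order of mean levels was RPA14 (46.6 ± 9.32, SD, n = 2), RPA12 (35.0 ± 7.07), RRN3 (33.4 ± 2.19), RPA34 (17.0 ± 7.75), RRN6 (12.9 ± 0.137), RPA43 (10.1 ± 4.28), RPA135 (7.58 ± 1.89), RPA49 (6.78 ± 3.42), RRN7 (6.49 ± 0.602) and RPA190 (4.94 ± 1.51). Only RPA14 and RPA12, RRN3 and RPA34, and RRN7 and RPA190 were neighbours in this order whose libraries did not overlap. The highest subunit level was 9.44 times the lowest in WT, 7.24 times in cho2 and 12.9 times in opi1. With SET2 deleted by label, this span was 3.50 times in set2, 3.96 in cho2set2 and 5.14 in opi1set2. RPA135 reached 32.7 ± 1.72 FPKM in set2, next in order after RPA14 (45.5), RPA12 (37.6) and RRN3 (35.1), with no overlap between these neighbours. In opi1set2 the order began with RPA12 (66.0 ± 10.3), above RPA34 (41.4), RPA14 (37.3), RPA135 (30.4) and RPA49 (30.4), whose libraries overlapped from one neighbour to the next. RPA190 stayed among the lowest in set2, cho2set2 and opi1set2, at 14.8, 13.5 and 12.8 FPKM.

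Gene length can be set beside the changes. Across the 10 genes, which are not independent, Spearman's rho between gene length and log2 change with SET2 loss was 0.588 in otherwise WT cells, 0.661 in cho2 cells and 0.297 in opi1 cells. RPA190 and RPA135, the longest of the 10 with 4995 and 3612 bases, rose in all of these comparisons, as did RRN7 with 1545 bases. RRN6, with 2685 bases, passed in none of them. The part of length in the changes was not tested.

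The remaining subunits and factors of the polymerase came from lists chosen by role. Their counts stand beside the shares of all genes given above, which were 18.5% rising and 15.9% falling in otherwise WT cells, 11.3% and 5.58% in cho2 cells and 23.5% and 20.8% in opi1 cells, and nothing is read from a count near its share. RPC40, one of the assembly subunits that polymerases I and III share, rose in otherwise WT cells (0.75 ± 0.18, adjusted p = 0.00474) and in opi1 cells (1.15 ± 0.18), and had 0.06 in cho2 cells, which did not pass. The first call was lost without WT replicate 2 or set2 replicate 1. RPC19, its partner, passed in none of the 3, and it overlaps an annotated gene on the other strand. Of the 5 subunits common to all 3 polymerases, 0 changed in otherwise WT cells or in cho2 cells by edgeR's test, with 0 at an unadjusted p below 0.05 and 0 by DESeq2. All 5 rose in opi1 cells with SET2 loss, led by RPB10 (1.13 ± 0.22) and RPO26 (0.96 ± 0.16), and 3 of them passed when opi1 replicate 1 or opi1 replicate 2 was left out. Of the 9 other factors of polymerase I, 2 rose in otherwise WT cells, close to the 18.5% of all genes: NET1 (0.81 ± 0.20), a nucleolar protein, and HMO1 (0.58 ± 0.14), a high-mobility-group protein bound to active rDNA. NET1 was lost without set2 replicate 1 and HMO1 without WT replicate 2. In cho2 cells 0 of the 9 passed by edgeR's test, with 2 at an unadjusted p below 0.05 and 0 by DESeq2, and 1 (RRN11, 1.31) passed without the library labelled cho2set2 replicate 1. In opi1 cells HMO1 rose while RRN5 (-0.58 ± 0.15) and RRN10 (-0.55 ± 0.21), subunits of the upstream activating factor, fell. There HMO1 was lost without opi1 replicate 1 or opi1set2 replicate 2, and RRN10 by limma at both pseudocounts and without either opi1 library or opi1set2 replicate 1. RRN5 and NET1 each overlap another annotated gene, and the strand setting of the counts is not given in the sources used here. RRN11, the last core factor gene, had 0.78 ± 0.38, 0.91 ± 0.37 and 0.64 ± 0.38 and passed in none.

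RNA polymerase III, which makes tRNA and 5S rRNA, was described in the same way. Of 10 subunit genes, 3 rose and 1 fell in otherwise WT cells with SET2 loss, and 3 rose in cho2 cells. The 3 were in both cases RPO31 and RET1, the catalytic pair of that enzyme, and RPC82, with changes of 1.21, 1.19 and 1.42 in otherwise WT cells and 1.01, 0.86 and 1.497 in cho2 cells. In cho2 cells without the library labelled cho2set2 replicate 1 they had 1.27, 1.05 and 1.59, and 4 subunits rose. In opi1 cells 7 rose, led by RPC82 (1.58 ± 0.17), RPC53 (1.11 ± 0.21), which overlaps another annotated gene, and RET1 (1.04 ± 0.14), and 4 rose without opi1 replicate 1 or without opi1set2 replicate 2. Of 9 polymerase III factors, 2, 3 and 4 rose in the 3 comparisons, beside 18.5%, 11.3% and 23.5% of all genes, with TFC7 (0.72 ± 0.18), BRF1 (0.47 ± 0.14) and BRF1 (0.58 ± 0.14) the largest. The count of 3 in cho2 cells was 0 without either cho2 library or cho2set2 replicate 2 and 3 without the library labelled cho2set2 replicate 1, and that of 4 in opi1 cells was 1 without opi1 replicate 1. The call of TFC7 was lost without WT replicate 1. Of 7 subunits found in RNA polymerase II alone, RPB4 and RPB11 fell in otherwise WT cells (-0.50 ± 0.16 and -0.46 ± 0.16), and RPB9 rose in cho2 cells (0.71 ± 0.20) and in opi1 cells (0.75 ± 0.21). RPB4 and RPB11 were each lost by limma at both pseudocounts and without either WT library. RPB9 was lost in cho2 cells without either cho2 library or the library labelled cho2set2 replicate 1, and in opi1 cells without opi1 replicate 2.

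**Figure D4:**
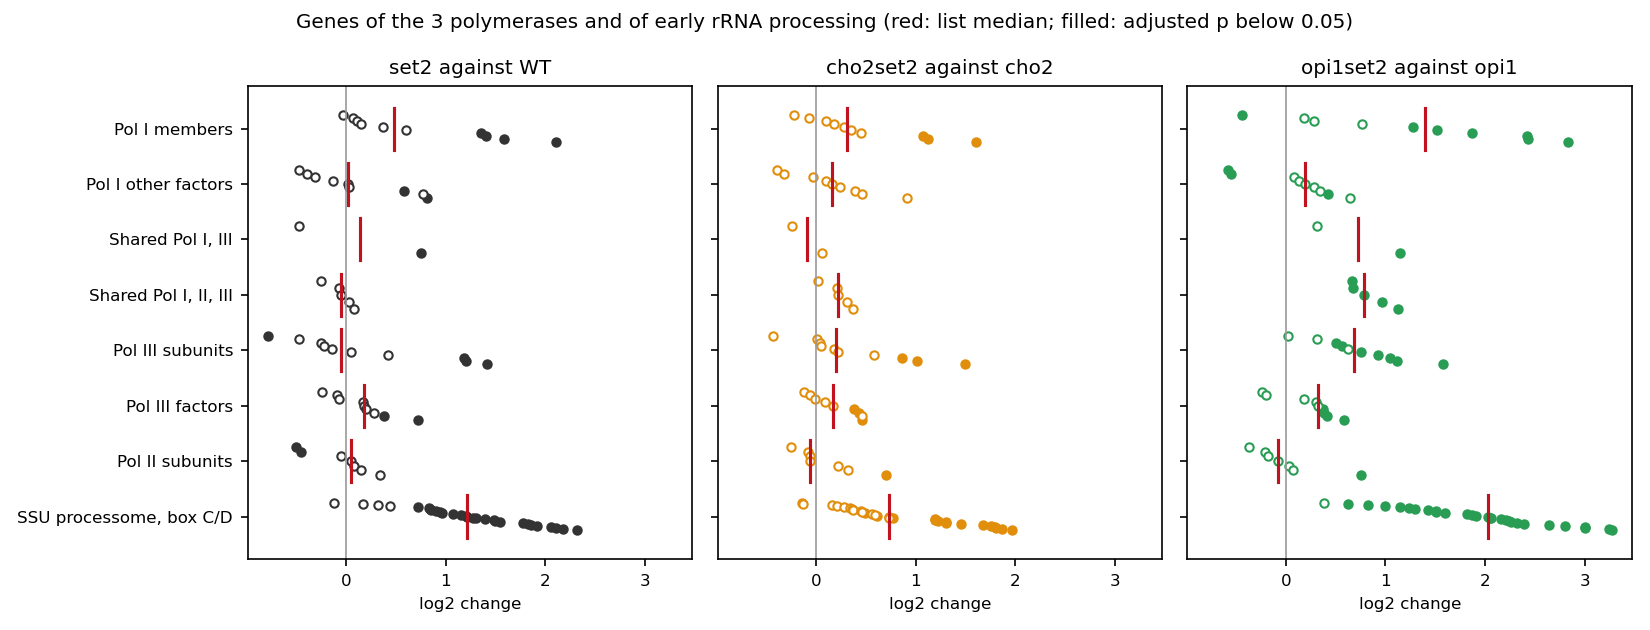
Log2 change with SET2 loss (horizontal axis) for the genes of each list, by background, with filled points where the adjusted p was below 0.05 and a red line at the list's median. The lists are the 10 polymerase I genes, other polymerase I factors, subunits shared between polymerases, subunits and factors of polymerase III, and subunits of polymerase II. The last list is the 29 genes of the small-subunit processome and box C/D particles, whose medians are 1.22, 0.73 and 2.03.

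Genes that act on the transcript of RNA polymerase I were listed by role too. The small-subunit (SSU) processome and the box C/D particles cut and modify the precursor RNA as it is made. Of 29 such genes, 25 rose in otherwise WT cells with SET2 loss, 15 in cho2 cells and 28 in opi1 cells, with 0 falling. Of all genes, 18.5%, 11.3% and 23.5% rose and 15.9%, 5.58% and 20.8% fell. The medians of the 29 were 1.22, 0.73 and 2.03 against -0.006, 0.000 and 0.005 for all genes. NOP14 (2.32 ± 0.21, 1.97 ± 0.20 and 3.01 ± 0.22) and PWP2 (2.18 ± 0.25, 1.86 ± 0.24 and 3.24 ± 0.29) were among the largest in all 3. Without the library labelled cho2set2 replicate 1, 16 of the 29 rose in cho2 cells, NOP14 by 2.18 and PWP2 by 2.11. In opi1 against WT, where 8.77% of all genes fell and 8.94% rose, 10 of the 29 fell and 0 rose, led by UTP21 (-1.51 ± 0.30) and PWP2 (-1.49 ± 0.31). That count of 10 was 2 without WT replicate 1, 2 without opi1 replicate 2, 4 without opi1 replicate 1 and 17 without WT replicate 2. The summed level of the 29 genes was 609.6 and 419.6 CPM in WT. It was 646.1 and 541.5 CPM for cho2 and 364.5 and 367.0 for opi1, against 1342 and 1311 in set2, 1078 and 1319 in cho2set2 and 1309 and 1348 in opi1set2. The GATGAG core lay upstream of 26 of these 29 genes, GCGATGAG of 17 and AAAATTTT of 23.

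Among 12 regulators of ribosome gene transcription, TOD6, a repressor that binds the PAC element, rose with SET2 loss in all 3 backgrounds. Its changes with SET2 loss were 1.74 ± 0.18 in otherwise WT cells, 1.46 ± 0.18 in cho2 cells and 2.46 ± 0.18 in opi1 cells. TOR2, a kinase of the TOR complexes, rose by 1.46 ± 0.13, 1.47 ± 0.13 and 1.08 ± 0.13 in that order. IFH1, a coactivator of ribosomal protein genes, rose in otherwise WT cells (0.80 ± 0.21), a call lost without WT replicate 2 or set2 replicate 2, and in opi1 cells (1.498 ± 0.22). It also rose in cho2 cells (0.72 ± 0.21), a call lost by limma at both pseudocounts and without either cho2 library or cho2set2 replicate 2. IFH1 overlaps another annotated gene. Without the library labelled cho2set2 replicate 1 the changes in cho2 cells were 1.53 for TOD6, 1.64 for TOR2 and 0.96 for IFH1. CRF1, a corepressor of those genes, fell in otherwise WT cells (-1.06 ± 0.16) and in opi1 cells (-1.30 ± 0.16). In all, 5 rose and 1 fell in otherwise WT cells (18.5% and 15.9% of all genes), 4 rose and 0 fell in cho2 cells (11.3% and 5.58%), and 4 rose and 2 fell in opi1 cells (23.5% and 20.8%). The rises numbered 3 in otherwise WT cells without set2 replicate 2, and 2 in cho2 cells without either cho2 library or cho2set2 replicate 2, and 5 in cho2 cells without the library labelled cho2set2 replicate 1.

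The members did not share a single pattern over the 12 libraries. Pearson's r between a member's log2 CPM and the mean of the other members was 0.965 for RPA135, 0.954 for RPA190, 0.905 for RPA34, 0.889 for RPA49, 0.869 for RRN7, 0.775 for RPA12, 0.759 for RPA43 and 0.668 for RRN6. It was 0.266 for RPA14 and -0.374 for RRN3. The libraries fall into those labelled as SET2 deletions and the others, so these values describe that division as much as the spread within it. Of 5976 genes outside the list with a mean FPKM of at least 5, those nearest to the mean pattern of the 10 members over the 12 libraries were URA7 (r = 0.992), DUS1 (0.990), NOC3 (0.987), SMY2 (0.987) and NOC2 (0.987). URA7 encodes CTP synthase, DUS1 a tRNA dihydrouridine synthase, and NOC2 and NOC3 proteins of the pre-60S ribosomal particle.

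The product of the enzyme could not be read from these counts. Of 8 rows for ribosomal RNA in the table, 1 had any counts, 17 in all over the 12 libraries and at most 6 in a library, and none was tested.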

How the data were processed

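RNA-seq was made from 12 yeast libraries, 2 for each of 6 genotypes, with RNA from the MasterPure Yeast RNA kit, per the labels' protocols. Per the submitters' processing notes, HTSeq 0.6.1, HISAT2 2.0.1, cutadapt 1.9.1 and genome build sacCer3 were used. Their roles and the strand setting are not given in the sources used here. Raw counts, 1 column per library for 7126 genes, are in the table that the authors deposited. The FPKM columns, computed by the authors, matched counts divided by library total and deposited exonic size (in bases) within 0.005. Coordinates are those of the table. They were equal to the RefSeq R64 annotation for 10 of 10 members and for 6036 of 6048 matched genes (99.8%).

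A gene was tested if its FPKM reached 1 in 2 or more of the 12 libraries (6583 genes). Counts of called genes omit the 3 deleted genes, which leaves 6580. The main test was the quasi-likelihood F test of edgeR 4.0.16 on counts, fitted on all tested genes with TMM scaling (factors 0.897 to 1.077), 1 mean per genotype and 6 residual degrees of freedom. The common biological coefficient of variation was 0.12. Tests were 2-sided, with Benjamini-Hochberg adjustment over all tested genes and a threshold of 0.05. An SE is the log2 change divided by the square root of F. Levels are TMM-scaled CPM and, between genes, FPKM scaled by the same factors. The script was tested on simulated counts. The precision is set by the 39 to 1048 counts of a member in a library.

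The members and the gene lists were chosen with earlier results of these data known. All 10 members are named; of each other list, the genes called are counted and at most the 3 with the largest changes in a comparison are named, and RPC19, RRN11, the remaining shared subunits and further values of IFH1, TOR2 and the genes with an interaction were added after their values were seen. The 5 nearest patterns are those of the largest Pearson r among genes with mean FPKM of at least 5.

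Alternatives were limma 3.58.1 on log2(FPKM + 1) and log2(FPKM + 0.1), no filter, median-of-ratios scaling, DESeq2 1.42.0, the replicate number as a block and each library left out in turn. The ratio test was added after the data were seen. The replicate 2 minus replicate 1 differences of 15 genotype pairs correlated at -0.257 to 0.265, with a median of -0.016. No pairing by number is seen in these values, which cannot exclude a shared replicate effect in some genes. Motifs were searched on both strands in 300 bases upstream of the start codon in the S288C reference, which is not the CEN.PK strain used. Software was Python 3.11.15, matplotlib 3.10.9, pandas 2.3.3 and R 4.3.3.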

Additional observations from a re-analysis of the deposited data

Results flagged for a closer look

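The interaction of opi1 and set2, a difference between backgrounds in the effect of SET2 loss, was tested with edgeR's quasi-likelihood test. It passed for 1 member and for 5 genes of the other lists. Over all 6580 genes it passed above 0 for 2.84% and below 0 for 2.63%. The number called is therefore not read as particular to these lists. RPA12 had an interaction of 1.17 ± 0.32 on the log2 scale (adjusted p = 0.0459), with both opi1set2 libraries above all others. The interaction was also above 0 for UTP5 of the SSU processome (1.16 ± 0.25, adjusted p = 0.0205), for RPO26 (0.94 ± 0.22, adjusted p = 0.0303) and RPB10 (1.18 ± 0.32, adjusted p = 0.046), which all 3 polymerases share, and for RPC11 of RNA polymerase III (1.41 ± 0.37, adjusted p = 0.0407). Of these, UTP5 rose in both backgrounds, by 2.11 in otherwise WT cells and 3.27 in opi1 cells. RPB10 (-0.05) and RPO26 (0.03) did not pass in otherwise WT cells and rose in opi1 cells (1.13 and 0.96). RPC11 fell in otherwise WT cells (-0.78, adjusted p = 0.0287) and did not pass in opi1 cells (0.63, adjusted p = 0.0647). DOT6, a repressor that binds the PAC element, had an interaction below 0 (-1.22 ± 0.34, adjusted p = 0.0492), with 0.58 (adjusted p = 0.0702) in otherwise WT cells and a fall of -0.64 in opi1 cells. Each of the 6 calls was lost when WT replicate 1 or either set2 or opi1 library was left out. Over 15 alternatives RPA12 was lost under 7, RPC11 under 7, UTP5 under 6, RPO26 under 8, and RPB10 and DOT6 under 10 each.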

How the results depend on the processing

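Of 1460 values of members under an alternative, 1405 kept their side of the threshold, 37 lost a call, 18 gained one and 0 calls reversed. Values that did not pass could change sign. RPA43 in cho2set2 against cho2 had -0.07, and 0.04 without the library labelled cho2set2 replicate 1. The number of members called held within 1.5 times in set2 against WT, cho2set2 against cho2, opi1set2 against opi1, cho2 against WT, cho2set2 against set2, opi1set2 against WT and the interaction of cho2 and set2. With each library left out in turn it ran from 0 to 3 in opi1 against WT, 0 to 2 in opi1set2 against set2, 2 to 4 in cho2set2 against WT, 1 to 2 in opi1 against cho2, 0 to 3 in opi1set2 against cho2set2 and 0 to 5 for the interaction of opi1 and set2. With DESeq2 it was 2 in opi1set2 against set2 and 2 for that interaction, and with limma on log2(FPKM + 0.1) it was 1 in opi1set2 against cho2set2. The cause was not tested.

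No pairing by replicate number was seen in the correlations above, which cannot exclude one in some genes. The replicate block gave 4, 3 and 7 members in the 3 comparisons with SET2 loss and 0 for the interaction of opi1 and set2. Precision is limited by 2 libraries a group and by member counts as low as 39. FPKM was not TMM-scaled, so the limma settings also change the scaling.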
